A study of Mus musculus with 2 samples.

Results

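The 32 genes described here are a module that microglia near amyloid plaques are known to express: surface receptors such as Itgax, Axl and Gpnmb, secreted factors such as Spp1, Csf1 and Igf1, chemokines, and enzymes of lipid and lysosomal metabolism. They were looked up by symbol among the 31053 genes of the deposited tables, and 31 were found and are described, while the expression of Clec7a was not analysed here. The 32 listed genes were chosen by name, with earlier measurements of microglia-like nuclei in these same libraries known, so their levels and ratios are given as descriptions and tested nowhere. The choice had no numeric threshold.

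The data were 2 single-nucleus RNA sequencing libraries of entorhinal cortex, taken from male APP/PS1 mice, which carry amyloid precursor protein and presenilin transgenes and deposit amyloid plaques with age. Each library was a pool of 5 mice, so differences between mice could not be seen. The first pool had received OLE (N-oleoyl-leucine, also written C18:1-Leu) at 25 mg/kg/day in alkaline drinking water and the other the DMSO vehicle, from 15 to 18 months of age, and both were taken at 18 months. All mice of both pools carried the transgenes, so the module was not compared with mice without plaques. The comparison asks how the module differed, gene by gene and cell type by cell type, between treated and untreated plaque-bearing mice. With 1 library per condition no test between OLE and vehicle was possible, and every interval given is an exact 95% interval that covers counting error only.

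Values are counts of unique molecular identifiers (UMIs, one per captured RNA molecule), summed over the nuclei of a cell type in a library and divided by all UMIs of that sum, per 1000000 (CPM). In all, 70845739 UMIs of 6745 nuclei were deposited for the vehicle and 69485537 UMIs of 6173 nuclei for OLE. After removal of likely doublets 6414 and 5884 nuclei remained. Nuclei were clustered without the module among the clustering genes and named by marker genes that are not members. The microglia-like cluster had 13 of its 15 markers raised and was led by Inpp5d, Ly86, Tgfbr1, Runx1 and Csf1r. It held 340 vehicle nuclei with a median of 2438 UMIs and 271 OLE nuclei with a median of 2359. RNA of other cells was present in these nuclei: a neuronal profile was estimated to make up 27.3% of their UMIs in the vehicle and 27.2% in the OLE library. The members' ratios with that profile subtracted are given at the end, and its part in the other results was not tested. The 18 genes of a neuronal list summed to 22696 CPM in the vehicle and 22026 in the OLE microglia-like nuclei, and 11 oligodendrocyte markers to 811 and 710.

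Microglia are the resident phagocytes of the brain. Around plaques they leave the surveying state, marked by P2ry12, Tmem119 and Cx3cr1, and enter a state known as disease-associated microglia (DAM), which depends on the lipid-sensing receptor TREM2. The genes of the module are among those that mark the plaque-facing state: they encode receptors for lipids and dying cells, growth factors and chemokines, and the machinery of phagosomes, lysosomes and lipid breakdown.

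The members differ widely as genes. In the GENCODE annotation of the mouse genome (GRCm38) the 31 genes lie on 16 chromosomes and run from 1.51 kb for Ccl3 to 1574 kb for Ctnna3, with a median of 45.8 kb. Introns were counted, and longer members had more UMIs in microglia-like nuclei, with a Spearman correlation of 0.66 across the 31 genes. Levels of different genes are therefore ranked here per kb of gene. That scale divides by length, so its order is not the order of counts. Ccl4, at 2.10 kb, had 47 UMIs in vehicle microglia-like nuclei, and Cadm1, at 327 kb, had 1122. On that scale Ccl4 was the highest member of the vehicle library at 25.3 CPM per kb, and Lyz2 was the highest of the OLE library at 39.5, while Colec12 was the lowest of both at 0.427 and 0.440. The annotation placed another gene on the opposite strand of 12 members and on the same strand of 7. Among members whose ratios stand out are Ctnna3 at chr10:63430098-65003667 (+), Lyz2 at chr10:117277331-117282321 (-) and Gpnmb at chr6:49036546-49070929 (+). Ctnna3 hosts Lrrtm3 on its opposite strand and Igf1 overlaps the antisense gene Igf1os. Whether the counting used the strand is not given in the sources used here, so reads of such pairs may not be told apart.

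Promoter sequence was examined because factors of the microglial lineage and of the activated state, PU.1, AP-1 and the MITF and TFE family, act through short motifs. The RefSeq promoter table of GRCm38.p6 held 23 of the 32 genes with 27 start sites, of which 25 belonged to the members found and the rest to Clec7a. The 250 bases before each start were searched on both strands. GAGGAAGT, a PU.1 motif, stood before 1 member, Spp1, and in 2.44% of all 32851 windows. TGANTCA, the AP-1 motif, stood before 2 members, Igf1 and Itgax, and in 6.75% of windows. TCACGTG, an E-box of the MITF and TFE factors, stood before 1 member, Hif1a, and in 3.13% of windows, while its variant TCATGTG stood before 0 members and in 3.25% of windows. ACGTG, the core of the hypoxia response element and a part of TCACGTG, stood before 2 members, Ctnna3 and Hif1a, and in 16.6% of windows. The windows of 4 members are printed 5′ to 3′ on the strand of the gene, 3 because they hold a motif and Gpnmb because its level differed most between the libraries among members with at least 100 UMIs. Capitals mark the PU.1 motif of Spp1, the AP-1 motif of Itgax, and in Hif1a the E-box, which reads CACGTGA on this strand, and a further ACGTG. The Gpnmb window held no motif that was searched. The regions are chr5:104434861-104435110 (+) for Spp1, chr7:128129300-128129549 (+) for Itgax, chr12:73907617-73907866 (+) for Hif1a and chr6:49036268-49036517 (+) for Gpnmb.
Spp1: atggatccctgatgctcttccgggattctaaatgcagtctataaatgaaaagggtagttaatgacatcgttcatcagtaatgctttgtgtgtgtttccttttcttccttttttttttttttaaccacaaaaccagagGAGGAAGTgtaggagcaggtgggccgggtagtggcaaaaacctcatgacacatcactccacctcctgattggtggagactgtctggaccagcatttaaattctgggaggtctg
Itgax: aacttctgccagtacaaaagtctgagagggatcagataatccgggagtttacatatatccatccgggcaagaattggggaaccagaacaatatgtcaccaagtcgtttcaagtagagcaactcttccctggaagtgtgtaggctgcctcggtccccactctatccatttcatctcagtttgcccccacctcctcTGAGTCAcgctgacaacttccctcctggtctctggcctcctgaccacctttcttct
Hif1a: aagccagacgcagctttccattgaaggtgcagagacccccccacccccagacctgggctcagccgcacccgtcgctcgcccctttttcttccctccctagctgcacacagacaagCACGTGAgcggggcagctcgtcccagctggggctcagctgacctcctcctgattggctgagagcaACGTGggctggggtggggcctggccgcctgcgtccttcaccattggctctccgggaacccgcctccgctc
Gpnmb: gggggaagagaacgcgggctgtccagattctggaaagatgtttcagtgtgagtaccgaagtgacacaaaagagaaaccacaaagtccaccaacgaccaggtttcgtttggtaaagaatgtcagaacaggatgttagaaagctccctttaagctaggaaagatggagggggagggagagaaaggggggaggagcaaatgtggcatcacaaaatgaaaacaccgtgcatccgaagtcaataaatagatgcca

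Microglia-like nuclei were clustered again, without the members, and the subclusters were named from other genes. A homeostatic-like subcluster had 9 of 11 markers raised and held 168 of 340 vehicle nuclei (49.4%, interval 44.0 to 54.9) and 135 of 271 OLE nuclei (49.8%, 43.7 to 55.9). The DAM-like subcluster had 14 of 20 non-member markers raised, and held 158 vehicle nuclei (46.5%, 41.1 to 51.9) and 119 OLE nuclei (43.9%). The OLE share of DAM-like nuclei thus lay within the interval of the vehicle share. A border macrophage-like subcluster held 5 vehicle and 8 OLE nuclei, and an unnamed subcluster led by neuronal genes held 9 and 9.

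The module was concentrated in the DAM-like subcluster of both libraries. Summed over the 31 members it reached 12262 CPM there in the vehicle and 12637 in the OLE library, against 2097 and 2006 in the homeostatic-like subcluster. The level was higher in the DAM-like subcluster in both libraries for all 31 members, counting Atp6v0d2 and Lgals3 by their lower bounds, with a median ratio of 8.04 in the vehicle and 9.06 in the OLE library. At least 2-fold in both libraries was reached by 27 of the 31, the exceptions being Cd52, Cadm1, Timp2 and Fabp5. Of the 22 members with at least 100 UMIs over both libraries, 20 reached it, where 2.92% of all 3494 genes at that depth did. Within DAM-like nuclei alone 22 members met that depth, and within homeostatic-like nuclei 4, so most passed it through the subcluster where they were high. The members were also listed with earlier values of these nuclei known, so the contrast with 2.92% is a description only. Of the 10 genes that led the DAM-like subcluster 9 were members: Mamdc2, Ctnna3, Dkk2, Igf1, Myo1e, Flt1, Fam20c, Gpnmb and Ank. Although no member had been used for clustering, the choice of members knew these nuclei, so this count too is a description only.

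**Figure D1:**
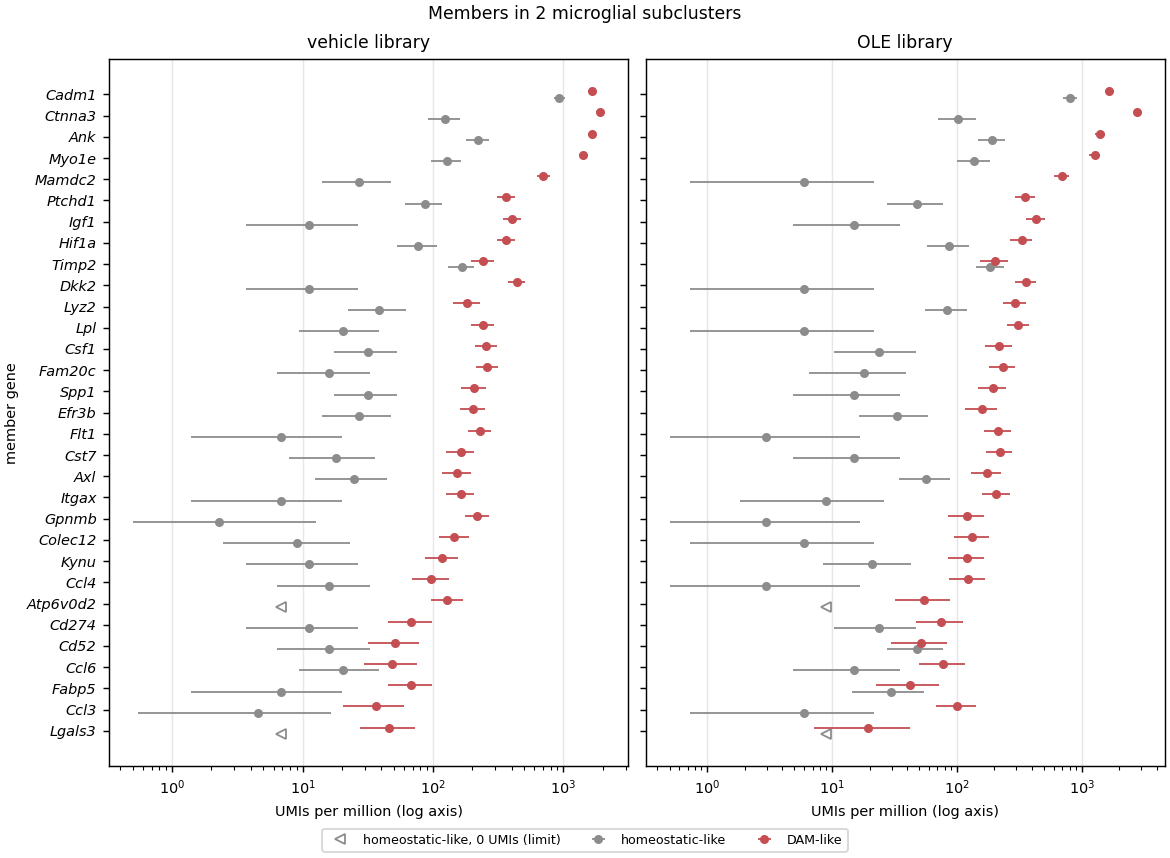
Each member's level in the homeostatic-like (grey) and DAM-like (red) subclusters of the vehicle library (left) and the OLE library (right), in CPM on a log axis, with exact 95% counting intervals (lower ends that reach far to the left are cut short). Open triangles are the level that 3 UMIs would give where none was counted (Atp6v0d2 and Lgals3). The red points lie to the right of the grey ones for all members, with Cd52, Cadm1, Timp2 and Fabp5 closest together in at least 1 library.

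Among receptors and surface proteins, 8 of the 10 members found were at least 2-fold higher in DAM-like nuclei of both libraries. This group was drawn to include Ctnna3, which is a junction protein and not itself a receptor or surface protein. Gpnmb, a transmembrane glycoprotein of phagocyte lysosomes, was almost confined to them, with 90 DAM-like UMIs against 1 homeostatic-like UMI in the vehicle and 37 against 1 in the OLE library. These single UMIs leave the ratios wide, with intervals of 16.9 to 3852 and 6.75 to 1623. Itgax, the alpha chain of the complement receptor integrin CD11c, was at 163 CPM in DAM-like and 6.81 in homeostatic-like nuclei of the vehicle library, and at 207 and 8.98 in the OLE library. Flt1, a receptor for vascular endothelial growth factor, stood at 229 against 6.81 in the vehicle and 214 against 2.99 in the OLE library. With 1 to 3 homeostatic-like UMIs the ratios were loosely fixed, at 23.9 (7.85 to 119) and 23.1 (7.55 to 115) for Itgax and 33.6 (11.1 to 166) and 71.4 (12.4 to 2861) for Flt1. Ctnna3, which encodes the cell-junction protein alpha-T-catenin, was at 1922 against 123 CPM in the vehicle and 2797 against 102 in the OLE library. Axl, a receptor tyrosine kinase for clearing dying cells, differed less, with ratios of 6.14 (3.21 to 12.9) and 3.07 (1.79 to 5.49). The adhesion molecule Cadm1 had many UMIs in both subclusters and ratios of 1.78 and 2.06, and Cd52, a small glycoprotein anchored on leukocytes, had 3.22 in the vehicle and 1.08 in the OLE library. The scavenger receptor Colec12 (16.1 and 22.2), the checkpoint ligand Cd274 (6.00 and 3.11) and the patched-domain protein Ptchd1 (4.23 and 7.37) lay between.

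Secreted factors showed the same contrast in 9 of 10 members. Dkk2, a secreted modulator of Wnt signalling, was at 440 CPM in DAM-like and 11.3 in homeostatic-like nuclei of the vehicle library, and at 356 and 5.99 in the OLE library, ratios of 38.8 (16.3 to 121) and 59.5 (16.1 to 497). Igf1, the insulin-like growth factor, was at 404 against 11.3 and at 431 against 15.0, ratios of 35.6 (14.9 to 111) and 28.8 (12.0 to 90.1). Mamdc2, an extracellular matrix protein, reached ratios of 25.8 (14.6 to 50.5) and 116 (31.8 to 966). The intervals of these 3 genes started at 12.0 or higher in both libraries. Spp1, which encodes osteopontin, was at 207 CPM against 31.8 in the vehicle and 194 against 15.0 in the OLE library. Csf1, the growth factor that sustains microglia, had ratios of 8.04 (4.58 to 15.2) and 9.06 (4.34 to 21.8). The chemokines had fewer UMIs: Ccl4 40 and 7 in the vehicle and 38 and 1 in the OLE library, Ccl3 15 and 2, then 31 and 2, and Ccl6 20 and 9, then 24 and 5, DAM-like first. Lgals3, encoding galectin-3, was counted 19 and 6 times in DAM-like and 0 times in homeostatic-like nuclei, so it was at least 6.79-fold higher in the vehicle and at least 2.16-fold higher in the OLE library, against 3 UMIs as the floor. Timp2, an inhibitor of matrix metalloproteinases, was the exception, with 1.45 (1.06 to 1.99) and 1.08 (0.748 to 1.56).

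The lipid and lysosomal members followed, with 5 of 6 at least 2-fold higher in both libraries. Lipoprotein lipase, Lpl, was at 241 CPM in DAM-like against 20.4 in homeostatic-like nuclei of the vehicle library and at 311 against 5.99 in the OLE library. Atp6v0d2, a subunit of the proton pump that acidifies lysosomes, was counted 53 and 17 times in DAM-like and 0 times in homeostatic-like nuclei, at least 18.9-fold and at least 6.13-fold higher. Cst7, the protease inhibitor cystatin F, had ratios of 8.98 (4.30 to 21.6) and 14.7 (6.00 to 46.7), and Ank, a transporter linked to pyrophosphate export, 7.55 (6.09 to 9.44) and 7.30 (5.60 to 9.65). Lyz2, the macrophage lysozyme, differed less between the subclusters, with 4.73 (2.77 to 8.54) and 3.48 (2.25 to 5.52). Its highest level was in the few border macrophage-like nuclei, at 975 CPM in the vehicle and 1111 in the OLE library. The fatty acid binding protein Fabp5 had ratios of 10.0 in the vehicle and 1.41 in the OLE library, on 3 and 10 homeostatic-like UMIs.

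All 5 intracellular members were at least 2-fold higher in DAM-like nuclei of both libraries. Myo1e, a class I myosin of actin-rich membranes, was at 1425 CPM against 127 in the vehicle and 1269 against 138 in the OLE library. Fam20c, a kinase of the secretory pathway, was at 260 against 15.9 and at 233 against 18.0, and Kynu, kynureninase of tryptophan breakdown, had ratios of 10.3 and 5.72. The oxygen-regulated transcription factor Hif1a (4.73 and 3.80) and Efr3b, a scaffold of lipid kinase at the plasma membrane (7.41 and 4.82), had the lower ratios of this group.

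Single nuclei carried several members at once in the DAM-like subcluster. To remove differences in depth, 1000 UMIs were drawn from each nucleus, and 2 shallower nuclei per library were left out. The median DAM-like nucleus then had a UMI of 5 members in the vehicle and 6 in the OLE library, and the median homeostatic-like nucleus of 2 and 1. At least 3 members were seen in 87.3% of vehicle DAM-like nuclei (81.0 to 92.0) and 90.7% of OLE ones (83.9 to 95.3), against 21.6% (15.6 to 28.6) and 14.9% (9.36 to 22.1) of homeostatic-like nuclei. UMIs of members were found in every named cell type, and the members summed to 1922 and 1992 CPM in glutamatergic-like nuclei. Of that sum Cadm1 alone made 1149 and 1163 CPM. Without the 5 members with most microglial UMIs it was 315 and 333 CPM, beside 2655 and 2540 in microglia-like nuclei. At the same depth 10.7% and 12.2% of glutamatergic-like nuclei had 3 or more members, as did 11.4% and 16.9% of GABAergic-like nuclei and 30.8% and 30.7% of oligodendrocyte-like nuclei, where Ctnna3 is abundant. Over the other named cell types the lowest share was 7.92%, in OPC-like nuclei of the vehicle, and the highest 35.7%, in 14 endothelial-like nuclei of the vehicle. The homeostatic-like shares were inside that range and the DAM-like shares above it. Without thinning, 96.8% and 98.3% of DAM-like and 58.3% and 48.1% of homeostatic-like nuclei had 3 or more.

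**Figure D2:**
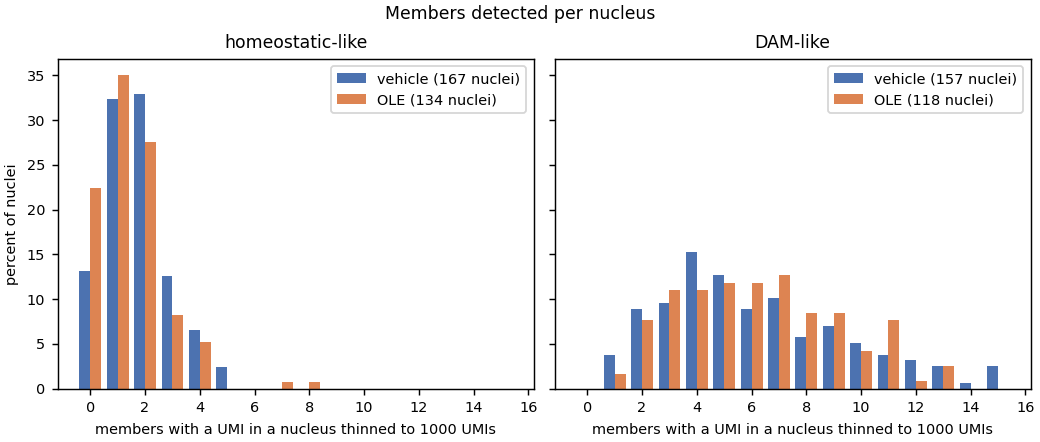
Percent of homeostatic-like (left) and DAM-like (right) nuclei by the number of members with at least 1 UMI, after thinning each nucleus to 1000 UMIs; blue bars are the vehicle and orange bars the OLE library. The homeostatic-like distributions peak at 1 or 2 members, and the DAM-like ones centre on 5 and 6 and reach 15 in the vehicle and 13 in the OLE library.

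Across the named cell types, microglia-like nuclei had the highest level of 22 of the 31 members in both libraries. Among the 22 members with at least 100 microglial UMIs it was 14, where 25.9% of all 3701 genes at that depth were highest in microglia-like nuclei. Below that depth, Cd52, Cd274, Ccl6, Ccl3, Lgals3 and Atp6v0d2 had microglia-like levels under what 3 UMIs would have given in mural-like nuclei, in both libraries. Their rank against that cell type was therefore not settled. Itgax was found in 13.5% of vehicle and 14.8% of OLE microglia-like nuclei and in 0.263% and 0.424% of glutamatergic-like nuclei, although the latter were deeper, with medians of 20780 and 19039 UMIs. Its level was 696 and 491 times the glutamatergic-like one, where 5 and 8 UMIs were counted. Endothelial-like and mural-like nuclei had 0 Itgax UMIs, but 3 UMIs would have given 22.1 and 80.5 CPM there in the vehicle and 17.4 and 50.8 in the OLE library, beside 79.3 and 96.3 in microglia-like nuclei. Against glutamatergic-like nuclei Ccl4 was 292 and 249 times higher, on 8 and 9 glutamatergic-like UMIs, Lyz2 99.4 and 141 times and Kynu 59.9 and 63.3 times. The cell types next in order had few UMIs of these 4 genes, so the distance to them is not given. Others were shared: Ank was 2.19 and 1.73 times, and Csf1 1.65 and 1.39 times the level of oligodendrocyte-like nuclei, and Gpnmb 3.78 times the oligodendrocyte precursor (OPC)-like level in the vehicle but 1.15 times in the OLE library.

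The other 9 members were higher elsewhere in at least 1 library. Flt1 was highest in endothelial-like nuclei, where microglia-like nuclei had 0.0321 and 0.0272 times that level, and Colec12 in mural-like nuclei (0.0733 and 0.0758 times). Ctnna3 was highest in oligodendrocyte-like nuclei (0.554 and 0.806 times) and Cadm1 in astrocyte-like nuclei (0.608 and 0.630 times). Endothelial-like and mural-like groups were small, with 14 and 35, and 11 and 16 nuclei, so their order is loosely fixed. Axl, Spp1, Timp2, Fabp5 and Efr3b had a different highest cell type in each library. Efr3b was below the glutamatergic-like level in both, at 0.793 and 0.640 times. Clusters without a name held 2928 vehicle and 2486 OLE nuclei and were left out of this order.

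**Figure D3:**
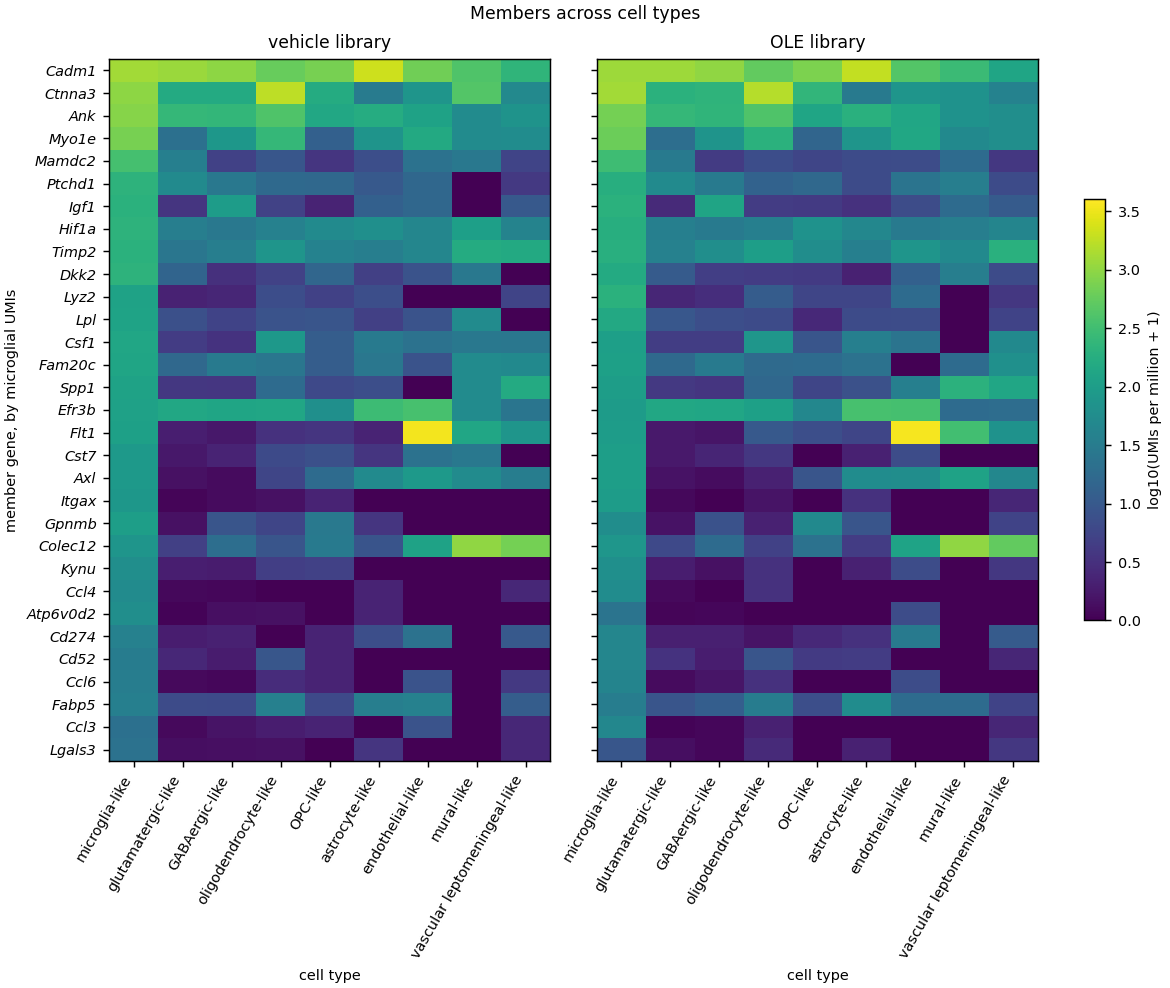
Level of each member, as log10 of CPM plus 1, in 9 named cell types of the vehicle library (left) and the OLE library (right), with members ordered by their microglial UMIs. The microglia-like column is filled for every member, while Flt1 peaks in endothelial-like, Colec12 in mural-like, Ctnna3 in oligodendrocyte-like and Cadm1 in astrocyte-like nuclei.

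Between the libraries the module as a whole was close to even in microglia-like nuclei. Its 31 members summed to 6848 CPM in the vehicle and 6600 in the OLE library, a log2 ratio of OLE over vehicle of -0.05 (-0.11 to 0.00). Without Ctnna3, the sum was 5887 and 5337, with a log2 ratio of -0.14 (-0.20 to -0.08). Of the 22 members with at least 100 UMIs, 1 was at least 1.5 times higher in the OLE library, Lyz2, where 2.08% of all 3701 genes were, and 1 was at least 1.5 times lower, Gpnmb, where 1.16% of genes were. The median log2 ratio of the 22 was -0.18, with 7 above 0, where 46.4% of all genes were. The median of all genes was -0.02, and their 10th and 90th percentiles were -0.32 and 0.31. The counting interval lay above 0 for 2 of the 22 (Ctnna3 and Lyz2), and for 5.19% of all genes, and below 0 for 4 (Gpnmb, Dkk2, Ank and Myo1e), and for 6.97% of all genes. Over the members the median interval reached 0.39 to either side on the log2 scale, so smaller differences of a typical member were not detectable at this depth.

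**Figure D4:**
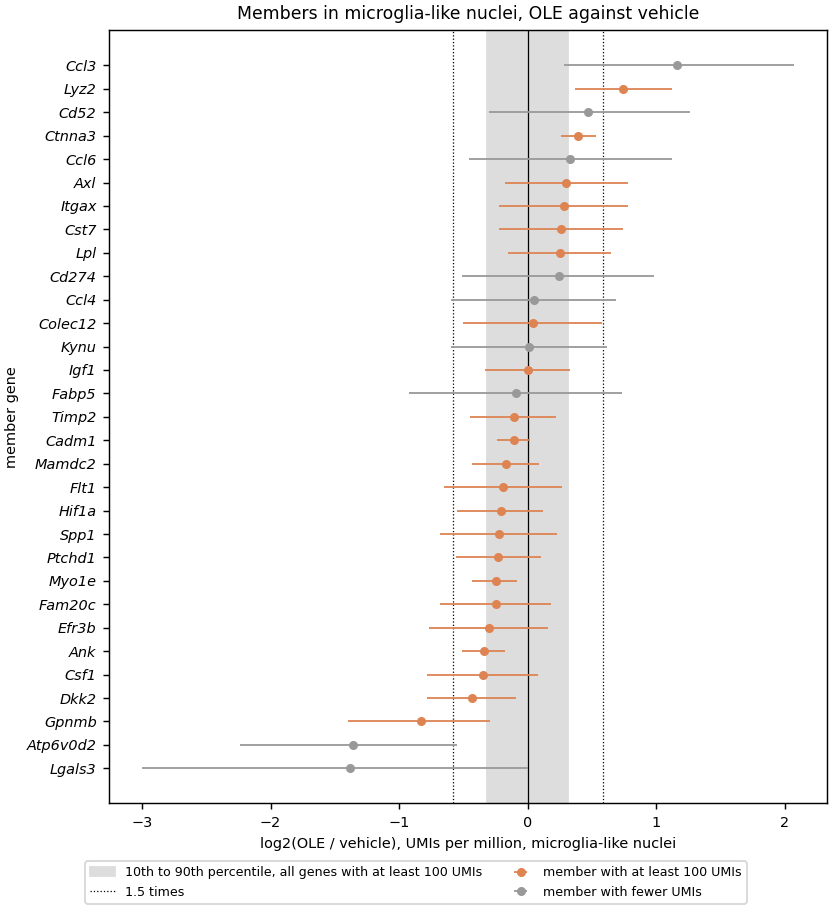
Log2 ratio of OLE over vehicle of each member in microglia-like nuclei with its exact 95% counting interval, orange for members that had 100 or more UMIs in the 2 libraries together and grey for the others; the grey band spans the 10th to 90th percentile of all genes with at least 100 UMIs, and dotted lines mark 1.5 times. Lyz2 at 0.74 and Gpnmb at -0.83 are the orange points outside the dotted lines, and Ccl3, Atp6v0d2 and Lgals3, on few UMIs, the grey ones.

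Receptors and surface proteins, with the junction protein Ctnna3 counted among them, were divided. At that depth 4 of 8 members were above 0, Ctnna3 being 1 of them, and 4 below, where 46.4% of all genes were above 0. Gpnmb had 91 UMIs in the vehicle and 42 in the OLE library, or 103 and 57.8 CPM, a log2 ratio of -0.83 (-1.40 to -0.29). These UMIs were in 30 of 340 and 20 of 271 nuclei, or 8.82% and 7.38% (0.894% and 1.06% of the deeper glutamatergic-like nuclei), and the 5 nuclei with most held 49.5% and 47.6% of them. The nucleus with most had 18 UMIs in the vehicle and 6 in the OLE library, so the value rests on few nuclei. Ctnna3 had 849 UMIs in the vehicle and 918 in the OLE library, or 962 and 1263 CPM, a log2 ratio of 0.39 (0.26 to 0.53). It too was unevenly spread, with 1 OLE nucleus holding 90 UMIs and 5 holding 33.1% of all, against 44 and 23.4% in the vehicle. The share of nuclei with a Ctnna3 UMI did not follow its level, at 33.5% (28.5 to 38.8) in the vehicle and 29.2% (23.8 to 35.0) in the OLE library, and glutamatergic-like nuclei, which express it, had 83.7% and 85.5%. The other members of this group at that depth had intervals that spanned 0. Itgax was at 79.3 and 96.3 CPM, Axl at 83.8 and 103, and Flt1 at 110 and 96.3, vehicle first. Colec12 was at 74.8 and 77.1, Cadm1 at 1271 and 1179, and Ptchd1 at 213 and 182. The Colec12 ratio of 0.04 became -0.24 without the border macrophage-like nuclei. Cd52 (28 and 32 UMIs) and Cd274 (33 and 32 UMIs) were too low to place.

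None of the 6 secreted members at that depth was above 0, where 46.4% of all genes were. Dkk2 had 187 UMIs in the vehicle and 114 in the OLE library, or 212 and 157 CPM, a log2 ratio of -0.43 (-0.78 to -0.09). After each nucleus was thinned to 1000 UMIs the ratio was 0.04. Igf1 was at 198 CPM in each library, with 175 and 144 UMIs and an interval from -0.33 to 0.33. The remaining ones had intervals that spanned 0: Csf1 was at 135 and 106 CPM, Spp1 at 116 and 99.1, Mamdc2 at 342 and 304, and Timp2 at 199 and 184. Spp1 was held by few nuclei, with 51 of its 102 vehicle and 35 of its 72 OLE UMIs in 5 of them. The chemokines were below 100 UMIs and not alike: Ccl3 had 18 UMIs in the vehicle and 33 in the OLE library, with a log2 ratio of 1.16 (0.28 to 2.07), whereas Ccl4 had 47 and 40 and Ccl6 29 and 30. Lgals3 had 19 and 6 UMIs, in 11 and 5 nuclei, and an OLE level 0.384 times the vehicle's (0.125 to 0.999).

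Lipid and lysosomal members had a median log2 ratio of 0.26 over 4 genes, 3 above 0, where 46.4% of all genes were. Lyz2 had 104 UMIs in the vehicle and 143 in the OLE library, or 118 and 197 CPM, a log2 ratio of 0.74 (0.37 to 1.12). They were spread over 70 of 340 and 77 of 271 nuclei, or 20.6% (16.4 to 25.3) and 28.4% (23.1 to 34.2), beside 2.63% and 2.86% of glutamatergic-like nuclei, and the 5 nuclei with most held 19.2% and 19.6%. The border macrophage-like nuclei contributed 12 and 23 of these UMIs, and without them the log2 ratio was 0.69. Lyz2 has the near-identical copy Lyz1, and how reads shared by both were counted is not given in the sources used here. Ank had 785 UMIs in the vehicle and 510 in the OLE library, or 889 and 702 CPM, a log2 ratio of -0.34 (-0.51 to -0.18). Cst7 was at 86.1 and 103 CPM and Lpl at 122 and 146, with intervals that spanned 0. Atp6v0d2, below the minimum, had 53 UMIs in 21 vehicle nuclei and 17 in 10 OLE nuclei, a log2 ratio of -1.36 (-2.24 to -0.55).

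All 4 members at that depth in the intracellular group, which leaves out Ctnna3, had log2 ratios between -0.30 and -0.21. Of all genes 46.4% were above 0. Myo1e was at 729 CPM in the vehicle and 612 in the OLE library, from 644 and 445 UMIs, and its log2 ratio was -0.25 (-0.43 to -0.08). Hif1a was at 211 and 182, Fam20c at 129 and 109 and Efr3b at 113 and 92.2, each with an interval that spanned 0. Kynu, with 53 and 44 UMIs, had a log2 ratio of 0.01 (-0.60 to 0.62).

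Within the DAM-like subcluster, where 22 members had at least 100 UMIs, the same 2 members passed 1.5 times: Lyz2 was higher, where 3.06% of 1668 genes were, and Gpnmb lower, where 3.66% were. Lyz2 was at 182 CPM in the vehicle and 291 in the OLE library, a log2 ratio of 0.68 (0.22 to 1.14), and Gpnmb at 219 and 120, -0.87 (-1.46 to -0.30). Ctnna3 was at 1922 and 2797, 0.54 (0.40 to 0.68), and Ank at 1661 and 1399, -0.25 (-0.43 to -0.07), while the intervals of Dkk2 and Myo1e spanned 0 there. The median of the 22 was -0.09, beside -0.03 for all genes. In the homeostatic-like subcluster 4 members had at least 100 UMIs (Cadm1, Timp2, Ank and Myo1e), and 0 of them passed 1.5 times in either direction, where 2.10% of 1759 genes were higher and 3.18% lower. The sparse ones went in both directions there. Lyz2 had 17 homeostatic-like UMIs in the vehicle and 28 in the OLE library, a log2 ratio of 1.12 (0.20 to 2.08). Cd52 had 7 and 16 and Fabp5 3 and 10, whereas Ptchd1 had 38 and 16 and Mamdc2 12 and 2.

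Genes of the same state that are not members were listed separately, with earlier results of these data known, and the same list served to name the DAM-like subcluster. Of 20 such genes 16 had at least 100 UMIs in microglia-like nuclei. Their median log2 ratio was 0.45, with 14 above 0, where 46.4% of all genes were. Of the 16, 4 were at least 1.5 times higher in the OLE library and 0 lower, beside 2.08% and 1.16% of all genes. Apoe, the main lipid carrier of the brain, was at 2064 CPM in the vehicle and 3108 in the OLE library, 0.59 (0.50 to 0.68). The lysosomal protease gene Ctsl was at 216 and 377, 0.80 (0.53 to 1.08), and Cd68, a lysosomal membrane glycoprotein, at 135 and 216, 0.68 (0.33 to 1.04). H2-D1, which encodes a class I major histocompatibility protein, was at 148 and 319, 1.11 (0.79 to 1.43), and Trem2 at 630 and 904, 0.52 (0.36 to 0.69). The module and these genes therefore had medians of opposite sign in the same nuclei, a difference that was not tested. Both sets were chosen with earlier results known, so the opposite signs are a description only. Across the members, gene length and the log2 ratio had a Spearman correlation of -0.33. Whether gene length had a part in the opposite signs was not tested. Summed over its 20 genes, the list of genes that are not members had a log2 ratio of 0.39 in microglia-like nuclei. The sum was above 0 in every other named cell type too, so the rise was not particular to microglia. It was 0.24 in glutamatergic-like, 0.39 in GABAergic-like, 0.49 in oligodendrocyte-like and 0.62 in OPC-like nuclei. In astrocyte-like nuclei it was 0.78, in endothelial-like 0.49, in mural-like 0.56 and in vascular leptomeningeal-like nuclei 0.73. Of the 18 neuronal genes 17 had at least 100 UMIs, with a median of -0.13 and 1, Nrgn, at least 1.5 times higher. Over all genes with at least 200 microglial UMIs, the lowest ratios were those of Tm9sf3 (-0.70), Tenm4 (-0.69) and Daam1 (-0.69), and the highest those of Slc3a2 (0.94), H2-D1 (1.11) and Cd74 (1.21).

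In other cell types some members had ratios unlike those in microglia-like nuclei, and some had similar ones. In glutamatergic-like nuclei, 19 members had at least 100 UMIs, and Cd52 and Timp2 were at least 1.5 times higher in the OLE library, where 3.83% of genes were, and Igf1 at least 1.5 times lower, where 0.220% were. Of 13 members in GABAergic-like nuclei, 2, Timp2 and Fabp5, were higher, where 5.45% of genes were, and 0 lower, where 0.351% were. Neither direction held any of 9 members in oligodendrocyte-like nuclei, where 2.98% and 0.806% of genes passed. Likewise 0 of 3 members in OPC-like nuclei passed, where 2.71% of genes were higher and 2.13% lower, and 0 of 4 in astrocyte-like nuclei, where 2.42% and 2.03% were. In the smaller vascular groups Cadm1 was at least 1.5 times lower. It was at 649 and 430 CPM in endothelial-like nuclei, on 88 and 74 UMIs, -0.59 (-1.06 to -0.13), where 3 members were measured and 18.8% of genes were lower and 11.7% higher. In vascular leptomeningeal-like nuclei, with 4 members, it was at 224 and 130 CPM, -0.79 (-1.18 to -0.40), where 4.15% of genes were lower and 8.53% higher, and Colec12 was at 700 and 544, -0.36 (-0.56 to -0.16). No member was at least 1.5 times higher in either. Timp2 was at 24.8 and 37.7 CPM in glutamatergic-like nuclei, 0.60 (0.49 to 0.72), at 33.4 and 58.6 in GABAergic-like nuclei, 0.81 (0.57 to 1.05), and at 74.6 and 104 in oligodendrocyte-like nuclei, 0.48 (0.17 to 0.80). In microglia-like nuclei its ratio was -0.11 (-0.45 to 0.22). Igf1 was at 2.64 and 1.72 CPM in glutamatergic-like nuclei, -0.62 (-1.07 to -0.18), but at 96.2 and 124 in GABAergic-like nuclei, 0.36 (0.21 to 0.51), where interneurons are known to make it. Ctnna3 was above 0 in glutamatergic-like nuclei at 0.33 (0.29 to 0.38), in GABAergic-like nuclei at 0.47 (0.36 to 0.59) and in OPC-like nuclei at 0.53 (0.18 to 0.89), alongside 0.39 in microglia-like nuclei. In oligodendrocyte-like nuclei, where it is highest, it was at 1737 and 1568 CPM, -0.15 (-0.22 to -0.08). Dkk2 was below 0 in glutamatergic-like nuclei too, at 13.6 and 9.74 CPM, -0.48 (-0.67 to -0.29).

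**Figure D5:**
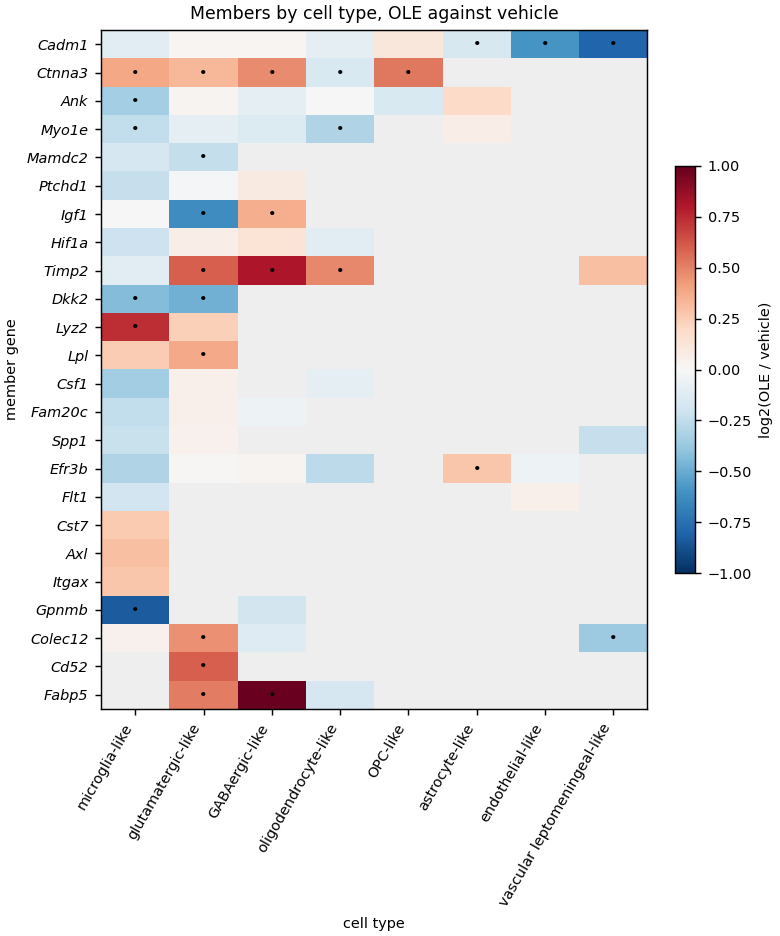
Log2 ratio of OLE over vehicle (colour, red higher and blue lower in the OLE library) for 24 members in the cell types where they had at least 100 UMIs over both libraries; light grey squares had fewer, and dots mark counting intervals that leave out 0. Cell types with more UMIs have narrower intervals, so the number of dots is not comparable between cell types. Ctnna3 is red in 4 cell types and pale blue in oligodendrocyte-like nuclei. Timp2 is red in glutamatergic-like, GABAergic-like and oligodendrocyte-like nuclei, and Cadm1 is blue in endothelial-like and vascular leptomeningeal-like nuclei.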

How the data were processed

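The authors prepared nuclei from frozen entorhinal cortex, built 10x libraries, aligned reads to mm10 with introns counted (Cell Ranger 3.0.1 per the labels, 3.0.2 in the matrix headers) and deposited unnormalized UMI counts per gene and nucleus, from which every value was computed. The submitters' notes also name Seurat 4.0.4. The members and gene lists were chosen with earlier results of these data known. The libraries shared 14 barcodes. Scrublet (scanpy 1.11.5, expected rate 5%) called 0.104% of vehicle and 0.130% of OLE nuclei by its own threshold, so the top 5% of scores, 331 and 289 nuclei, were removed. SCTransform in R 4.3.3 (sctransform 0.4.2, called from Seurat 5.3.0) gave 3000 variable genes, of which 2976 that are not members were used, and nuclei were clustered by Louvain (30 components, 20 neighbours, resolution 0.4). Microglia were clustered again (2971 genes, 15 components, resolution 0.3). A class name needed 3 markers raised 4-fold over the 10th percentile of clusters and found in 10% of nuclei. Classes with a marker among a cluster's 10 leading genes were preferred. Without such a marker a cluster stayed unnamed where another class had 50% of its markers raised, or where its nuclei were much shallower than their library. A subcluster name needed 3 markers raised 1.5-fold. UMIs were summed per library and class and scaled per 1000000 (CPM). Ratios carry no pseudocount. Intervals are exact (Poisson for sums, Clopper-Pearson for ratios and shares) and cover counting error only. Genes counted for calls had at least 100 UMIs over both libraries. Values were given for members at that depth or highest in microglia, for listed program and neuronal genes, and for the 3 highest and 3 lowest ratios. The calculation was tested on simulated data. Python 3.11.15, numpy 2.4.6, scipy 1.17.1, pandas 2.3.3, matplotlib 3.10.9 and edgeR 4.0.16 (TMM factors alone) were used. The expression of Clec7a was not analysed here.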

Additional observations from a re-analysis of the deposited data

Results flagged for a closer look

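Ctnna3 had a log2 ratio of OLE over vehicle of -0.15 in oligodendrocyte-like nuclei, on 3772 and 2782 UMIs, against 0.39 in microglia-like nuclei, with counting intervals on opposite sides of 0. In mural-like nuclei its ratio was -2.66, on 16 vehicle and 4 OLE UMIs. Gpnmb had a ratio of 0.88 in OPC-like nuclei, on 21 and 32 UMIs, against -0.83 in microglia-like nuclei. With 1 library per condition none of these 3 differences between cell types was tested.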

How the results depend on the processing

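The median log2 ratio of the members in microglia-like nuclei was -0.18 and ran from -0.22 to -0.10 over 13 alternatives. One member was at least 1.5 times higher (Lyz2) and 1 lower (Gpnmb), and the counts were 2 and 2 with a minimum of 30 UMIs, 2 and 3 with no minimum beyond 1 UMI in each library, 0 and 0 with 2 times as the fold, and 0 and 0 after thinning each nucleus to 1000 UMIs, where 10 members were left and Lyz2 and Gpnmb had fewer UMIs than the minimum. Where Lyz2 and Gpnmb could be computed, their ratios ran from 0.69 to 0.84 and from -0.88 to -0.79. Members highest in microglia-like nuclei numbered 22, and 19 to 23 over the alternatives, and members at least 2-fold higher in DAM-like nuclei 27, and 27 to 28. Of 274 values of single members under alternatives, 273 moved by less than their interval and 3 changed sign: Dkk2 from -0.43 to 0.04 and Ptchd1 from -0.23 to 0.01 after thinning, and Colec12 from 0.04 to -0.24 without the border macrophage-like nuclei. The cause was not tested. Over all genes the split of calls depended on scaling, with 77 higher and 43 lower scaled to CPM, 58 and 67 with TMM factors and 105 and 30 per nucleus. With the neuronal profile subtracted the median was -0.18, with 1 member higher and 1 lower. Leaving out the neuronal-gene subcluster, chosen after seeing the data, left a median of -0.11. No paired analysis was possible because each condition had 1 library and the labels give no replicate numbers. Depth limits members under 100 UMIs the most.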
